A study of Apocynum venetum with 18 samples.

Results

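In leaves of Apocynum venetum held in salt solution for up to 48 h, 150 assembled transcripts of moderate level varied least over 18 RNA-seq libraries once library sizes were scaled by TMM, a trimmed mean of log ratios between libraries. Their highest library exceeded their lowest by a median of 1.46-fold. Without that scaling their median coefficient of variation (CV, the SD over the mean) was 16.6% in place of 10.6%. The reverse held for 150 features chosen without scaling, with 9.73% without it and 17.4% with TMM, so each list was steadiest under its own scaling. Without scaling, all 150 chosen with TMM were lower at 48 h than at 0 h, against 52.3% of all features of that level. That count follows from the choice, because the TMM factors were lower at 48 h than at 0 h. They were the 150 features with the lowest CV among 4619 features with a mean of 50 to under 700 counts scaled to a common library size (CPM), out of 45222 features tested and 53545 deposited. Because the choice used all 18 libraries and their CPM values, the levels, spreads and changes of these 150 are given as a description and support no test.

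Reference transcripts are used in quantitative PCR to set the level of a gene of interest against the amount of RNA loaded, and they serve this purpose only if their own level stays put under the treatment studied. In plants, genes for the cytoskeleton, for translation and for protein turnover are often tried for this role, and several of them are known to shift under salt. In RNA-seq a steady level is always steady relative to the other transcripts of the library, so the scaling between libraries is part of what "steady" means. The feature IDs come from a Trinity assembly made without a genome, and the names deposited beside them were not used, so the transcripts are described by ID, level, length and time, with no function given.

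Apocynum venetum is a wild perennial grown for bast fibre and tea, and the design text speaks of 18 wild seedlings split between salt and control. The labels give leaf tissue and a nutrient solution with 300 mmol/L NaCl for all 6 groups, which differ by time in the solution, with 3 libraries at each of 0 h, 2 h and 6 h and 3 at each of 12 h, 24 h and 48 h. No library here is labelled as an unsalted control, so time in salt cannot be told apart from handling or hour of sampling. The labels do not say which plant gave which library, so any p-value measures the spread between these libraries, which may be technical.

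Total estimated counts were 17933939 to 24731213 per library. TMM factors were 1.07 to 1.18 in the 0 h and 2 h libraries and 0.744 to 0.844 in those of 48 h. At 24 h they were 0.866, 0.792 and 1.04, so that replicate 3 stood apart from the others of its group. The library labelled 0 h replicate 2 had a mean Spearman correlation across features of 0.919 with 2 h replicates 1 and 3. With replicates 1 and 3 of its own group it was 0.886. The library labelled 2 h replicate 2 correlated at 0.908 with 0 h replicates 1 and 3 and at 0.892 with replicates 1 and 3 of its own group. The CV, the membership and the counts of calls were therefore also computed without 24 h replicate 3, and without the pair of second replicates of 0 h and 2 h.

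The 150 steady transcripts had a median CV of 10.6%, from 6.05% to 12.5%, while the 4469 other features of the same level range had a median CV of 40.9%, from 12.6% to 422%. Of the 150, 53 had a CV under 10% and 8 a CV under 8%. The highest of the 18 libraries exceeded the lowest by a median of 1.46-fold, from 1.24-fold to 1.81-fold across the 150, against a median of 4.11-fold for those not chosen. With a mean over the 18 libraries of 1114 to 10181 counts per feature, counting alone would give a CV of 0.991% to 3.00%, a median of 5.10% of the variance seen. Without 24 h replicate 3 the median CV of the same 150 was 10.2%, and it was 10.8% if both second replicates of 0 h and 2 h were dropped.

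**Figure D1:**
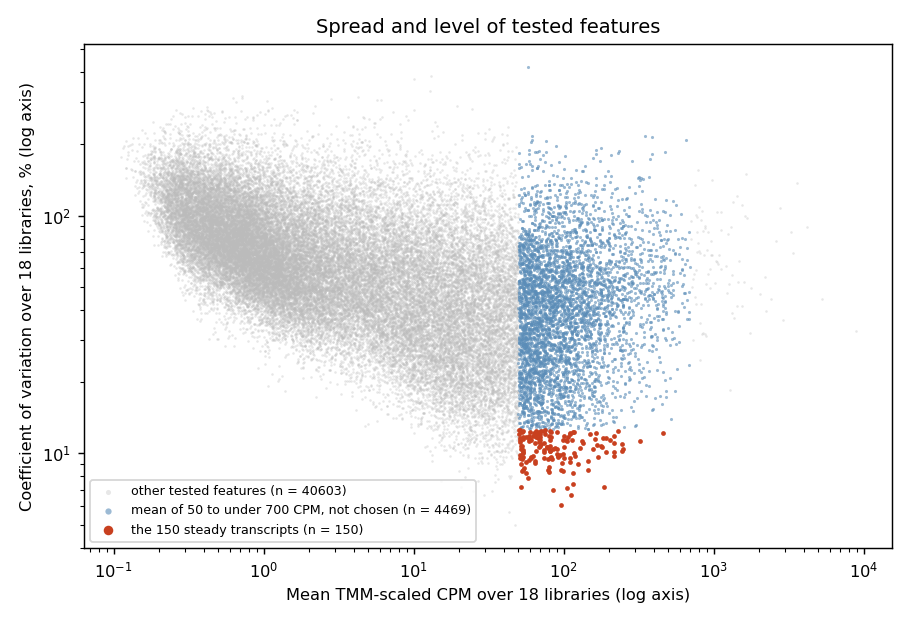
CV over 18 libraries in percent against mean TMM-scaled CPM for each tested feature, both on log axes. The 150 steady transcripts, in red, form the lower edge of the level range at a CV of 6.05% to 12.5%. The 4469 features of that range that were not chosen are in blue, and other tested features in grey.

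The edge of the list was not a gap. TRINITY_DN14775_c0_g1_i4_5 and TRINITY_DN17510_c0_g1_i17_9, the last features inside, both had a CV of 12.5%. TRINITY_DN3720_c0_g1_i1_3 and TRINITY_DN16961_c0_g1_i10_7, the first outside, both had a CV of 12.6%. The level range also decided membership, since 213 of the 9741 features at 10 to under 50 CPM (2.19%) had a CV no higher than the highest of the 150. None of the 86 features at 700 CPM or more did, and the lowest CV there was 18.5%.

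Most of the 150 lay in the lower part of the level range. At 50 to under 100 CPM there were 102 (68.0%, against 56.1% of all 4619 eligible features), at 100 to under 200 CPM 37 (24.7% against 29.5%) and at 200 to under 700 CPM 11 (7.33% against 14.5%). Their median length was 3161 nucleotides, from 590 to 15538, against 2692 for all eligible features. On the per-length FPKM scale their mean levels ran from 7.60 to 265, with a median of 32.5 against 41.3 for all eligible features. Each of the 150 is the sole deposited feature of its Trinity gene and final ID digit, so no other isoform of the same gene could be set beside it. Final digit 6 was the most common, with 31 of the 150 (20.7%) against 15.2% of the eligible features.

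The steadiest was TRINITY_DN15232_c0_g1_i11_6, of 3714 nucleotides, with a CV of 6.05% around 95.4 CPM, and also the steadiest at 50 to under 100 CPM. Its 3 libraries stood at 95.3, 108 and 91.1 CPM at 0 h, 93.3, 99.1 and 98.1 at 2 h, then 93.7, 96.9 and 88.7 at 6 h. At 12 h they stood at 96.0, 104 and 99.3 CPM, at 24 h at 96.6, 81.5 and 97.6, and at 48 h at 90.0, 94.4 and 94.1. Every later group overlapped that of 0 h, although the 12 h libraries all lay above those of 48 h, and both extremes were single libraries, 0 h replicate 2 on the high side and 24 h replicate 2 on the low side. Of its variance 27.4% lay between times, close to the 29.4% that is the share of the degrees of freedom between times (5 of 17).

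TRINITY_DN7921_c0_g1_i2_8, of 6891 nucleotides and the steadiest at 100 to under 200 CPM, had a CV of 6.64% around 112 CPM. It stood at 102, 117 and 111 CPM at 0 h, 113, 107 and 103 at 2 h, then 109, 104 and 108 at 6 h. Later values were 112, 116 and 122 at 12 h, 99.99, 106 and 122 at 24 h, then 115, 124 and 120 at 48 h. Its highest library exceeded its lowest by 1.24-fold, the smallest such ratio of the 150. The 48 h libraries were high and 24 h was the most spread group, with an SD of 11.2 CPM (n = 3).

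TRINITY_DN13224_c0_g1_i1_4, of 3500 nucleotides, had a CV of 7.02% around 84.7 CPM. Its 0 h libraries were the most uneven, at 77.3, 90.3 and 72.8 CPM, while those of 2 h stood at 89.3, 90.5 and 89.6 and those of 12 h at 89.4, 92.3 and 90.9. At 6 h it stood at 81.5, 78.6 and 78.9 CPM, at 24 h at 89.6, 83.2 and 88.1, and at 48 h at 83.5, 78.3 and 80.5. The 2 h and 12 h libraries were all above those of 6 h and 48 h, a difference of about 10 CPM between the group means of 89.8 and 79.7 at 2 h and 6 h.

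TRINITY_DN15736_c0_g1_i3_9, of 4538 nucleotides, had a CV of 7.11% around 105 CPM. It stood at 94.9, 106 and 109 CPM at 0 h, 99.9, 119 and 103 at 2 h, then 98.7, 102 and 105 at 6 h. Later values were 115, 109.9 and 119 at 12 h, 100.3, 104 and 90.8 at 24 h, then 104, 109 and 107 at 48 h. The 12 h libraries were the highest group, at 115 CPM ± 4.57 (SD, n = 3), and those of 24 h the lowest, at 98.5 ± 6.87.

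TRINITY_DN9935_c0_g1_i1_4, of 4200 nucleotides, had a CV of 7.21% around 52.2 CPM. It stood at 47.6, 52.7 and 46.4 CPM at 0 h, 50.6, 49.3 and 46.3 at 2 h, then 53.0, 52.5 and 50.01 at 6 h. Later values were 49.5, 54.5 and 54.5 at 12 h, 52.5, 51.2 and 57.5 at 24 h, then 57.4, 59.4 and 55.1 at 48 h. All 3 libraries at 48 h were above all 3 at 0 h, with means of 57.3 and 48.9 CPM, a log2 ratio of 0.23, which was -0.29 in plain CPM. A low CV over 18 libraries thus left room for an ordered difference between times, here 64.3% of the variance.

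**Figure D2:**
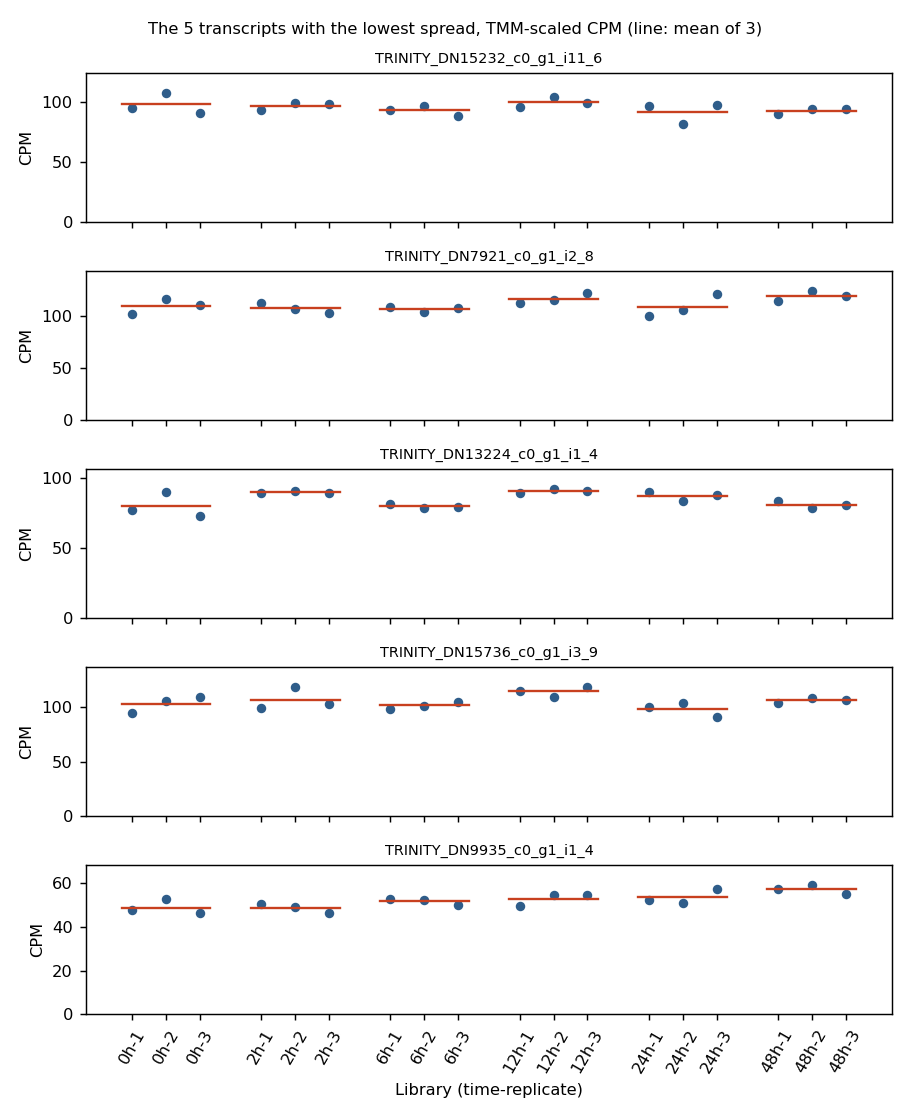
TMM-scaled CPM of the 5 features with the lowest CV in each of the 18 libraries, by time and replicate. Points are libraries and lines the mean of 3. The values stay within 81.5 to 108 CPM in the top panel and within 46.3 to 59.4 CPM in the bottom one, where the 48 h libraries lie above those of 0 h.

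Higher levels were steady too, but less so. At 200 CPM and above the lowest CV was 9.70%, in TRINITY_DN18016_c0_g1_i1_1, of 11487 nucleotides. It stood at 232, 217 and 245 CPM at 0 h, at 232, 234 and 238 at 2 h, and at 216, 256 and 224 at 6 h. Later it stood at 215, 200.2 and 192 CPM at 12 h, at 176, 214 and 182 at 24 h, and at 209.8, 211 and 209 at 48 h. The later libraries were lower, and those of 48 h were all under those of 0 h, with a log2 ratio of -0.14 between the means.

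The most abundant of the 150 was TRINITY_DN12633_c0_g1_i2_5, of 2009 nucleotides, with a mean of 462 CPM, also the highest on the per-length scale, and a CV of 12.1%. It stood at 489.6, 461 and 498 CPM at 0 h, 540.1, 422 and 561 at 2 h, then 376, 423 and 457 at 6 h. Later values were 409, 421 and 362 at 12 h, 438, 453 and 466 at 24 h, then 499, 482 and 551 at 48 h. It was lowest at 12 h, at 397 CPM ± 31.2 (SD, n = 3), and back to 511 ± 35.9 at 48 h.

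In TMM-scaled CPM, where choosing a low CV keeps medians near 0, the median log2 ratio of the group mean to the 0 h mean was 0.0063 at 2 h, -0.0048 by 6 h, -0.025 by 12 h, 0.017 for 24 h and -0.024 for 48 h. For the eligible features not chosen it was 0.10, 0.071, 0.19, 0.43 and 0.50. Of the 150, 112 stayed within 0.3 of 0 h on the log2 scale at all 5 later times, and 148 within 0.5. Among the 4619 eligible features 252 (5.46%) and 739 (16.0%) did so, the 150 included. The largest difference from 0 h at any time was 0.51 on the log2 scale, and the ratio of the highest to the lowest group mean ran from 1.09-fold to 1.43-fold, with a median of 1.24-fold.

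Of the 5 eligible features whose 5 later means all lay within 0.1 of 0 h on the log2 scale, 4 were among the 150, singled out after their values were seen. The smallest largest difference in the level range, 0.079, belonged to a feature that was not chosen, against 0.089 among the 150. They were TRINITY_DN15232_c0_g1_i11_6 and TRINITY_DN13366_c0_g1_i1_9 with a mean of 116 CPM, TRINITY_DN14212_c0_g1_i7_9 with 78.5 CPM, and TRINITY_DN14775_c0_g1_i4_5 with 50.2 CPM. The last of these was also the last but 1 of the 150 by CV. Its 0 h libraries stood at 57.1, 39.2 and 56.6 CPM and its 2 h libraries at 41.7, 63.8 and 47.4, whereas those of 12 h stood at 48.9, 47.7 and 47.6. Level group means with uneven replicates thus placed it at the other end of the list. The values of 39.2 and 63.8 CPM were those of the second replicates of 0 h and 2 h. Each of these libraries correlated better with the other's group than with its own. Whether their labels are right was not tested, so its level group means at 0 h and 2 h depend on those labels.

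Small differences between times made up a good part of the spread of the 150. A median of 53.3% of their variance lay between times, from 12.7% to 94.1%, against 74.0% for the eligible features not chosen and the 29.4% of degrees of freedom between times. The spread within a time was a median CV of 8.40%, against 22.4% for those not chosen. The highest group mean belonged to 0 h in 21 of the 150, to 2 h in 22, to 6 h in 29, to 12 h in 14, to 24 h in 33 and to 48 h in 31. The lowest belonged to 48 h in 37 and to 12 h in 31. Among all eligible features 40.2% were highest at 48 h, against 20.7% of the 150.

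With TMM, the largest rises from 0 h to 48 h among the 150 were in TRINITY_DN15892_c0_g1_i4_9 and TRINITY_DN17140_c0_g2_i4_2, with log2 ratios of 0.45 and 0.36. In plain CPM both turned, to -0.071 and -0.16. The first stood at 47.2, 48.9 and 46.9 CPM at 0 h, and at 64.4, 58.3 and 63.3 at 2 h. It then stood at 56.8, 57.8 and 59.4 CPM at 6 h, 66.4, 70.7 and 67.2 at 12 h, 60.6, 61.0 and 60.9 at 24 h, then 62.6, 67.0 and 65.3 at 48 h. Every later library was above every 0 h library, and 94.1% of its variance lay between times, the largest such share of the 150. The second stood at 69.0, 78.3 and 70.5 CPM at 0 h and stayed between 69.1 and 83.2 until 24 h. It reached 92.1, 99.7 and 87.2 CPM at 48 h, all above the other 15 libraries.

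The largest falls were in TRINITY_DN16889_c0_g1_i1_1 and TRINITY_DN23837_c0_g1_i1_6, with log2 ratios of -0.51 and -0.45 with TMM and of -1.02 and -0.96 in plain CPM. The first stood at 84.7, 75.4 and 90.3 CPM at 0 h, had a mean of 76.6 ± 5.25 (SD, n = 3) at 24 h, and stood at 55.3, 61.7 and 59.4 CPM at 48 h, below all other libraries. The second, of 748 nucleotides, stood at 85.9, 85.3 and 87.6 CPM at 0 h and had group means of 80.6 ± 6.51 for 2 h, 76.8 ± 2.97 for 6 h and 72.7 ± 2.10 for 12 h. At 24 h its libraries were uneven, at 87.6, 71.7 and 63.7 CPM, and at 48 h they stood at 64.9, 55.7 and 69.1. These 4 features show how large a difference the choice by total spread let through.

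**Figure D3:**
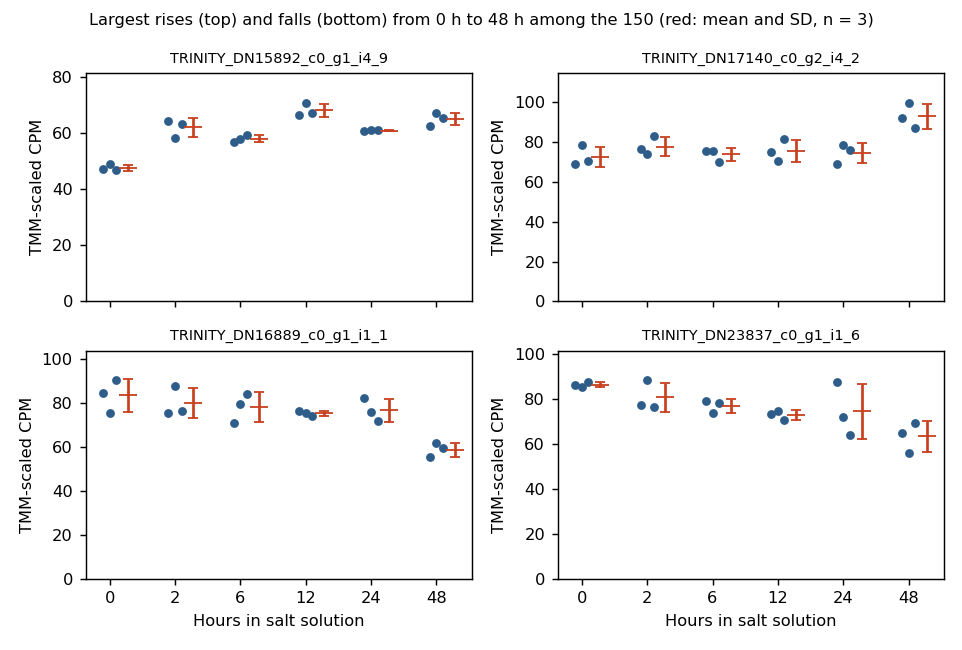
TMM-scaled CPM by hours in salt solution for the 2 features of the 150 with the largest rise (top) and the 2 with the largest fall (bottom) from 0 h to 48 h. Blue points are libraries, and red marks the mean and SD of 3. In the top left panel the step lies between 0 h and 2 h. In the top right and bottom left panels the 48 h libraries lie apart from all others, and in the bottom right panel they overlap those of 24 h. In plain CPM both rises turn, to -0.071 and -0.16 on the log2 scale.

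The fit across all 45222 features was read for the 150 as a description, since it uses the libraries that chose them. With edgeR's quasi-likelihood test, a Benjamini-Hochberg adjusted p under 0.05 and a log2 change of at least 1, 0 of the 150 were called for 2 h against 0 h, where 0.716% of tested features were (0.502% higher, 0.214% lower). None was called for 6 h (background 6.4%, with 4.67% higher and 1.73% lower) or for 12 h (17.2%, with 10.5% higher and 6.68% lower). None was called for 24 h (27.2%, with 14.8% higher and 12.4% lower) or for 48 h (32.0%, with 16.3% higher and 15.7% lower). At an unadjusted p under 0.05, the number of the 150 was 3 for 2 h, 9 for 6 h, 11 for 12 h, 11 for 24 h and 18 for 48 h. No share of all tested features at that threshold is given, so nothing is read from these counts or their order. The DESeq2 test also called 0 at each time. In the edgeR fit the largest absolute log2 change of any of the 150 was 0.51, at 12 h. Choosing a low CV kept all of them under the size threshold of 1, so the counts of 0 follow from the choice.

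By the adjusted p alone, without a size threshold, 8 of the 150 passed at 48 h, 2 higher and 6 lower, where 38.1% of tested features did. At 12 h 3 passed (21.2% of tested features), TRINITY_DN15892_c0_g1_i4_9 higher and TRINITY_DN5491_c0_g1_i2_6 and TRINITY_DN12483_c0_g1_i4_1 lower. At 24 h 3 passed (32.9% of tested features), TRINITY_DN15892_c0_g1_i4_9 and TRINITY_DN15492_c0_g1_i11_6 higher and TRINITY_DN20081_c0_g1_i1_7 lower, and at 2 h (0.73%) and 6 h (7.62%) 0 did. In the test over any time 1 of the 150, TRINITY_DN15892_c0_g1_i4_9, passed, where 43.2% of tested features did. That count rested on the test: it was 46 with DESeq2 (56.3% of tested features), 31 when features had to reach 10 CPM in 3 libraries (73.9%), and 0 with the replicate number as a block in the fit (38.6%). With 1 library left out it stayed 1 only without 2 h replicate 2, 6 h replicate 1, 24 h replicate 2, 24 h replicate 3, 48 h replicate 1 or 48 h replicate 3, and was 0 without any of the others.

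Without regard to a test, the 48 h libraries were all above the 0 h libraries in 25 of the 150 (16.7%) and all below in 31 (20.7%). Of all tested features 25.0% and 25.1% had such separate groups, and of the eligible features 48.9% and 19.9%. The choice used these libraries, so nothing is read from the difference.

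The steadiness of the 150 depended on the scaling between libraries. In CPM divided by total counts alone, all 150 had a lower mean at 48 h than at 0 h, against 52.3% of all eligible features. The median log2 ratio of the 150 in plain CPM was -0.54, from -1.02 to -0.07. In TMM-scaled CPM 80 were lower (53.3%, against 34.7% of eligible features) and 70 were not, with a median of -0.024. The 150 together held 1.71% ± 0.0118 (SD, n = 3) of the counts in the 0 h group, 1.69% ± 0.0631 in the 2 h group, 1.59% ± 0.00867 in the 6 h group, 1.48% ± 0.0375 in the 12 h group, 1.34% ± 0.0996 in the 24 h group and 1.18% ± 0.0657 in the 48 h group. The highest 48 h library, at 1.25%, was under the lowest 0 h library, at 1.70%. These shares are of unscaled counts, so their fall follows from the choice too. Their median CV was 16.6% in plain CPM and 16.8% in the deposited FPKM values.

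**Figure D4:**
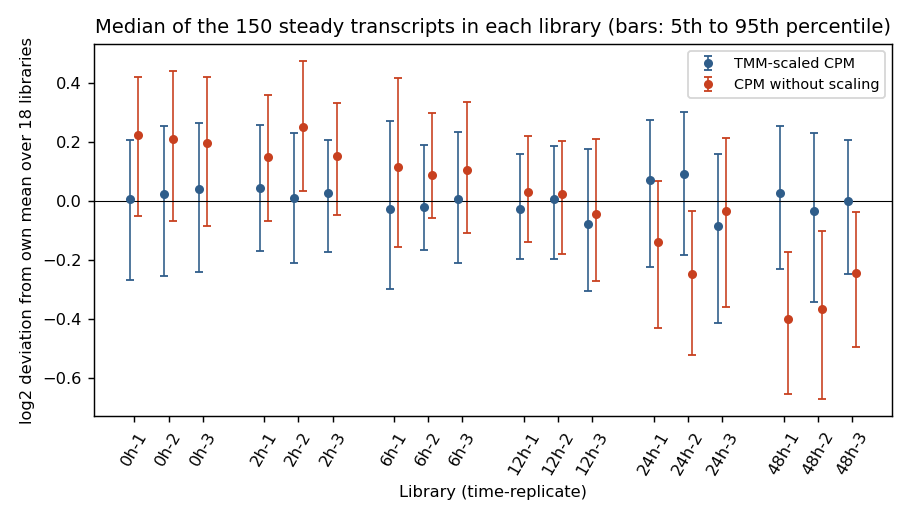
Median log2 deviation of the 150 features from their own mean over 18 libraries, for each library, with bars from the 5th to the 95th percentile. With TMM (blue) the medians lie between -0.087 and 0.089. In CPM without scaling (red) they lie at 0.20 to 0.22 for 0 h and at -0.40 to -0.25 for 48 h.

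Even with TMM, single libraries carried a shared offset. The median deviation of the 150 from their own means was 0.068, 0.089 and -0.087 on the log2 scale in the 24 h libraries. At 48 h it was 0.024, -0.037 and -0.0014, and in the other 12 libraries it lay between -0.079 and 0.044. In 24 h replicate 3 45 of the 150 were above their own mean, against 107 in 24 h replicate 2. The former was the lowest of all 18 libraries for 28 of the 150 (18.7%, against 6.65% of eligible features). The latter was the highest for 21 (14.0%, against 15.5%), near the share of eligible features. Whether the TMM factors of these libraries give rise to the offset was not tested.

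Choosing on plain CPM gave mostly different features. Only 13 of the 150 (8.67% of each list) were also among the 150 with the lowest CV in plain CPM, and 11 among those chosen on FPKM. The list chosen on plain CPM had a median CV of 9.73% in plain CPM and 17.4% in TMM-scaled CPM, and its median log2 ratio from 0 h to 48 h was -0.045 in the former and 0.47 in the latter. Leaving out the 13 shared features, the mean log2 count of the TMM list minus that of the plain CPM list changed by -0.047 ± 0.037 (SD, n = 3) from 0 h to 2 h and by -0.045 ± 0.049 to 6 h. It changed by -0.16 ± 0.048 to 12 h, -0.39 ± 0.13 to 24 h and -0.54 ± 0.092 to 48 h. Each list was chosen to be level under its own scaling, so this difference follows the TMM factors and is no separate evidence for either. The labels name no added RNA of known amount.

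The 13 features common to both lists had CVs of 7.21% to 12.1% with TMM and 7.29% to 11.2% in plain CPM. All 13 were higher at 48 h than at 0 h with TMM and lower without it, with log2 ratios of 0.11 to 0.36 and of -0.41 to -0.16. These opposite directions follow largely from a low CV under both scalings, which differ between 0 h and 48 h. They are no separate trait of the 13. The highest in the TMM order was TRINITY_DN9935_c0_g1_i1_4. The highest in the plain CPM order, singled out after its values were seen, was TRINITY_DN20545_c0_g1_i2_3, of 8158 nucleotides and 80.2 CPM, with a CV of 11.7% with TMM and 7.29% without it.

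A ratio of a pair of features within a library takes no scaling, but the 150 were chosen with TMM on these libraries, so low spreads of their ratios follow from the choice and are given as a description. Over the 11175 pairs the SD of the log2 ratio across 18 libraries had a median of 0.207, from 0.0786 to 0.344. Averaged over its partners, each of the 150 had an SD of 0.171 to 0.248, while the eligible features not chosen had a median of 0.614 against the same 150. Pairs within the plain CPM list had a median of 0.186. The steadiest pair of the 150 was TRINITY_DN7921_c0_g1_i2_8 with TRINITY_DN9935_c0_g1_i1_4, with an SD of 0.0786. Their count ratio was 2.25 ± 0.126 (SD, n = 3) for 0 h, 2.21 ± 0.0295 for 2 h and 2.06 ± 0.0864 for 6 h. It was 2.21 ± 0.0788 for 12 h, 2.03 ± 0.110 for 24 h and 2.09 ± 0.0879 for 48 h, and stayed between 1.91 and 2.39 in single libraries.

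Values that the choice did not use came from leaving out each library in turn, choosing 150 features on the other 17, and reading them in the library left out. Over all 18 libraries the chosen features lay a median of 0.127 on the log2 scale from the mean of the other 17, and 2664 of 2700 readings (98.7%) were within 0.5. In plain CPM the same readings carried a shared shift, with a library median of 0.19 to 0.21 on the log2 scale in the 0 h libraries and of -0.43, -0.41 and -0.27 in those of 48 h. With TMM, for the other features of the level range the median distance was 0.433 and 55.4% were within 0.5. Of the 2700 readings 0 were more than 1 away. The chosen features did worst in 24 h replicate 3, where their median was 0.173 and 133 of 150 (88.7%) were within 0.5, and best in 6 h replicate 2, with 0.0834 and 150 of 150. The library left out had replicates of its own time among the 17, and its TMM factor came from all its features, so this is a reading in a new library of a known time and not at a new time.

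**Figure D5:**
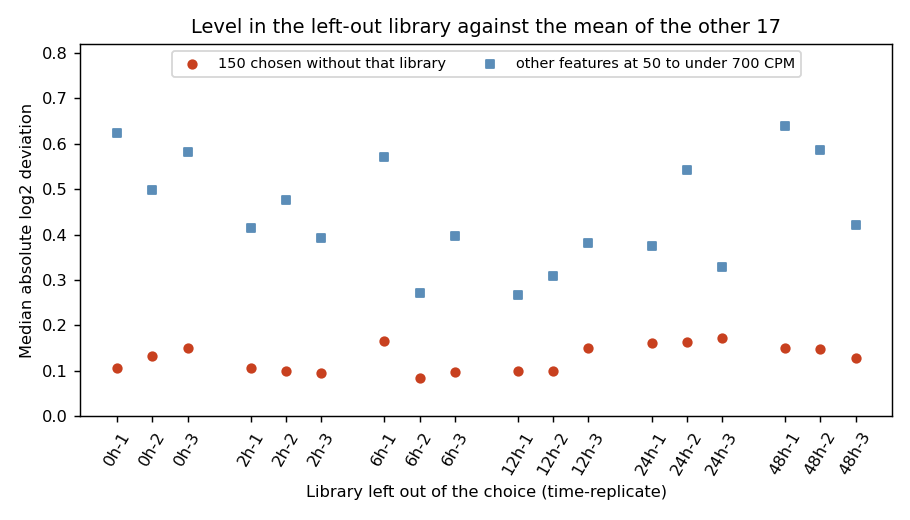
Median absolute log2 deviation in the library left out of the choice, against the mean of the other 17, by library. Red circles are the 150 features chosen without that library, from 0.0834 to 0.173, and blue squares the other features at 50 to under 700 CPM, from 0.267 to 0.640.

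The same leaving out showed how firm membership was. Between 126 and 142 of the 150 were chosen again when 1 library was left out, 126 without 24 h replicate 2 and 130 without 24 h replicate 3. With both second replicates of 0 h and 2 h dropped, 132 were chosen again.

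Some of the 150 had neighbours in the assembly, that is, tested features of the same Trinity component and final digit but another gene number; reads may be split between such related sequences. There were 14 such neighbours for 13 of the 150, with a median level of 4.34 CPM and CVs of 24.5% or more. Of the 14, 10 lay under 10 CPM, where no tested feature had a CV as low as the 150. At 48 h 5 of them (35.7%, against 32.0% of all tested features) were called, 4 higher and 1 lower. The most abundant, TRINITY_DN17140_c0_g3_i5_2, went from 30.2 CPM ± 4.87 (SD, n = 3) at 0 h to 91.3 ± 16.9 at 48 h, a log2 change of 1.59 (SE 0.27, edgeR adjusted p = 0.00027). The steady feature of its component, TRINITY_DN17140_c0_g2_i4_2, went from 72.6 ± 5.02 to 93.0 ± 6.30 CPM. The one that fell, TRINITY_DN16769_c0_g2_i3_4, went from 13.7 ± 5.20 to 1.90 ± 0.472 CPM, a log2 change of -2.84 (SE 0.53, edgeR adjusted p = 0.00061).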

How the data were processed

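Leaf RNA-seq tables of 18 libraries were used (0 sample columns unused), grouped by title and labelled time. Deposited by the authors were estimated counts per Trinity feature, of which 89.6% were not whole, and FPKM values for the same features, per the file headers and values; neither counting tool nor aligner is named in the labels. Count over FPKM gave lengths of 301 to 15981 nucleotides, within 0.1 of a whole number for 99.98% of features. The divisor of each library was picked to make lengths whole, so that share is partly built in. It came to 86.0% to 87.9% of the library's total counts. Estimated counts were rounded to whole numbers, filtered by edgeR's filterByExpr by time and scaled by TMM (edgeR 4.0.16, R 4.3.3); CV is SD over mean of TMM-scaled CPM. One fit of the 6 time groups over 18 libraries was tested by edgeR's quasi-likelihood F-test and adjusted over all tested features; common dispersion 0.24. Each SE is the absolute log2 change divided by the root of its F. Pairwise ratios used counts + 0.5. Intervals of counting error cover counting only.

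The deposited names (6.44% of features, 3 of the 150) were not used: the 12 features with a photosynthesis name had a median of 0.531 CPM in a leaf, and at most 7.24 CPM, while the most abundant feature had 8868 CPM. The lists of reference families and tissue markers were therefore not applied, and the labelled tissue was not checked by markers. The members, lists, tests and alternatives were chosen with earlier results of these data known. Named by rule were the 5 with the lowest CV, the lowest CV per level class, the features beside the limit, the 2 largest rises and 2 largest falls to 48 h, the steadiest pair and the most abundant. The scripts were tested on simulated counts. Alternatives were DESeq2 1.42.0 size factors and test, plain CPM, FPKM with limma 3.58.1, other filters, other measures of spread, the replicate block and libraries left out. Upper-quartile scaling was added after seeing the data. Python 3.11.15 with pandas 2.3.3 wrote the tables, and matplotlib 3.10.9 drew the figures.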

Additional observations from a re-analysis of the deposited data

How the results depend on the processing

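The median CV of the 150 was 10.6%. It was 16.6% in plain CPM and 16.8% in FPKM. Other lists had other medians: 14.0% when chosen at 100 to under 700 CPM, 12.0% by the median absolute deviation over the median, and 11.1% by the CV of the 6 time means. In the remaining settings the median CV moved by less than its SD over the 150, with 10.2% to 10.9% when 1 library was left out. The number of the 150 chosen again was 13 with plain CPM, 11 with FPKM, 84 with the median absolute deviation over the median, 97 with the CV of the 6 time means and 48 with the level range of 100 to under 700 CPM. It was 135 with DESeq2 size factors, 119 with at least 10 CPM in 3 libraries, 115 with upper-quartile scaling (chosen after seeing the data) and 126 to 142 with 1 library left out. The count of called features stayed at 0 at 2 h, 6 h, 12 h and 24 h in all 26 alternatives, and at 48 h in 25. The exception, limma on log2(FPKM + 0.1), not scaled by TMM, called 1, TRINITY_DN16889_c0_g1_i1_1, at -1.03. In the main fit no log2 change of the 150 exceeded 0.51, against a threshold of 1. A count of 0 with TMM thus follows from the choice, and its recurrence says nothing about robustness. The test over any time passed 1 of the 150 (43.2% of tested features), but 3 with DESeq2 size factors in the edgeR fit (43.5%). It passed 46 with the DESeq2 test (56.3%) and 31 with at least 10 CPM in 3 libraries (73.9%). With limma it passed 84 on log2(FPKM + 1) (50.7%) and 64 on log2(FPKM + 0.1) (47.4%). It passed 0 to 1 with 1 library left out (35.7% to 45.2%) and 0 with the replicate number as a block (38.6%). The cause of these differences was not tested. No pairing by replicate number was seen: 5 of 45 same-number pairs had a correlation of deviations over 0.1, against 19 of 90 other pairs. Of the 18 libraries 2 correlated best with their own number. With 3 libraries per time these values cannot exclude a pairing. The block changed no other count. The median SD of log2 ratios of pairs, 0.207, was 0.203 to 0.210 with 1 library left out. Other isoforms of the Trinity genes could not be tested, since none was deposited under the same gene ID and final digit. Counting error would give a median of 5.10% of the variance of the 150, and 16.8% at most.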

Other observations

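Below the level range used, the feature with the lowest CV at 10 to under 50 CPM, singled out after its values were seen, was TRINITY_DN10301_c0_g1_i6_4, of 2906 nucleotides. It had a CV of 4.97% around 47.1 CPM, lower than any of the 150, and its 18 libraries stood between 42.6 and 52.3 CPM. Its group means were 48.9 CPM ± 2.95 (SD, n = 3) for 0 h, 47.2 ± 1.63 for 2 h, 46.8 ± 2.47 for 6 h, 48.3 ± 2.34 for 12 h, 44.9 ± 2.06 for 24 h and 46.4 ± 2.02 for 48 h. Its CV in plain CPM was 15.9%.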
